A study of Mus musculus with 8 samples.

Results

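Neurotransmitter receptor genes were followed in the tumour cells of small cell lung cancer allografts that had grown in the brain, the liver or under the skin of mice. The set held every gene whose symbol begins with Gria, Grik, Grin1, Grin2, Grin3, Grm, Gabr, Glra, Chrn or Chrm, or with Htr or Drd followed by a digit, which gave 87 of the 22056 genes listed. Every allograft had been grown from N2N1G, a mouse line of this cancer, so the data describe 1 line. Each allograft was started with 1000000 cells and taken after 3 weeks. The 2 brain and 3 subcutaneous allografts had been started by direct injection and the 3 liver allografts through the tail vein, so route and site cannot be told apart in the liver comparisons. Healthy single cells had been sorted from the dissociated tumours and profiled by 10x Genomics 3' RNA sequencing.

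Ionotropic receptors are channels built from several subunits, and the genes of AMPA, kainate, NMDA, GABA-A, glycine, nicotinic and type 3 serotonin receptors encode such subunits. Metabotropic glutamate receptors, muscarinic receptors, dopamine receptors and the other serotonin receptors act through G proteins instead. Small cell lung cancer is a neuroendocrine tumour, and its cells carry many transcripts of neurons, receptor subunits included. Going by its title, the study is about neuronal mimicry in brain tumours, and the question here is how receptor transcripts differed between the 3 sites.

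A cell counted as a tumour cell where transcripts of the eGFP reporter and of Mycl made up at least 0.2% of its unique molecular identifiers (UMIs). Of 38460 deposited cells, 36797 were kept (500 or more genes detected, no more than 10% of UMIs mitochondrial), and 34719 of these passed the gate. Tumour cells made up 71.6% and 92.0% of the kept cells of brain, 96.1% to 98.6% of liver and 93.8% to 98.9% of subcutaneous libraries. Between 0.1% and 0.4% lay 2669 kept cells, and the same 15 and 7 calls of the brain comparisons below were made with the gate at either value. Markers of neuroendocrine cells were present at each site, with Insm1, a transcription factor, at 159 to 319 and Chga, a granule protein, at 383 to 669 UMIs per 1000000 tumour-cell UMIs of a library. Between 21689091 (brain replicate 1) and 62047017 tumour-cell UMIs were summed per library. The following set libraries apart before any comparison: brain replicate 1 held the largest share of cells under the gate, and 38.8% of the tumour cells of subcutaneous replicate 1 had a UMI of the transcription factor Tfap2a, against 7.95% to 21.6% in the other 7 libraries. Libraries shared 20 to 56 cell barcodes per pair, and 882 of 37556 different barcodes occurred in more than 1 library. Nothing in the labels says whether replicates came from separate animals, so p-values measure the spread between these samples only.

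Levels are given in CPM, the UMIs of a gene per 1000000 UMIs, over the summed tumour cells of a library. Each molecule is tagged once at its 3' end, so transcript length does not enter this scale. In summed counts, fewer cells with a transcript and less of it per cell cannot be told apart. A few receptor genes carried nearly all of the signal: 14 genes reached a mean of at least 5 CPM in 1 or more sites and held 92.9% of the 132738 receptor UMIs. Htr3a, the subunit that can form a serotonin-gated channel by itself, held 28.8%. Another 15 genes lay between 1 and 5 CPM, and 58 had means under 1 CPM in every site. No UMI was seen in any library for 9 genes, among them Chrm5, Chrna6, Glra4, Htr2c and Htr5a. A count of 0 allows a level of up to 0.00834 CPM over all libraries, by a limit of 3 UMIs that covers counting error only. Summed over all 87 genes, the level was 396 ± 37.5 CPM in brain (SD, n = 2), 350 ± 21.8 CPM in liver (n = 3) and 374 ± 44.0 CPM in subcutaneous tumours (n = 3), so the sites overlapped in total receptor signal.

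**Figure D1:**
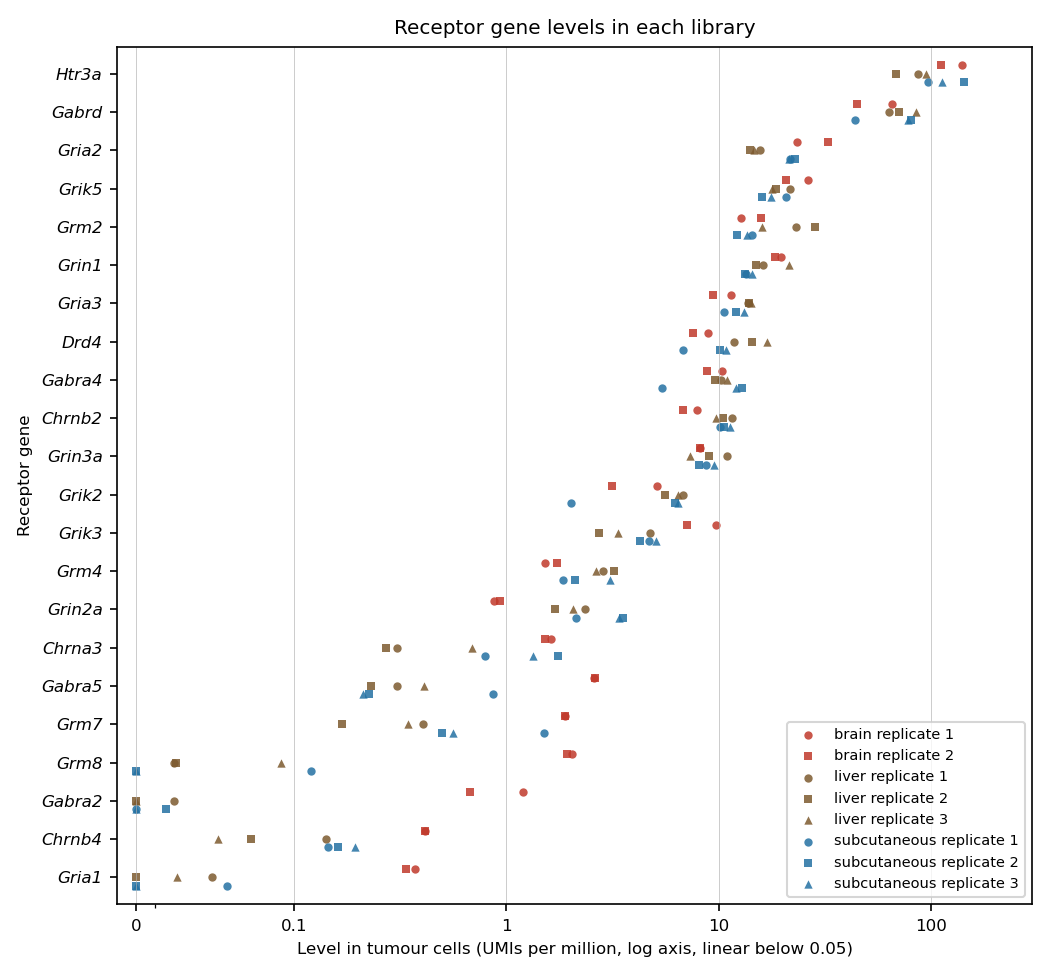
Levels of 22 named receptor genes in tumour cells of each library, in CPM on a log axis that is linear below 0.05, with colour for the site and shape for the replicate. Htr3a lies highest, from 68.5 to 144, while Gabra5, Grm8, Gabra2 and Gria1 are low genes whose brain points stand apart from the other 6 libraries.

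Counts were compared with edgeR's quasi-likelihood test in 1 fit of all 8 libraries, with a call at a Benjamini-Hochberg adjusted p under 0.05 over 13931 genes. Only 41 of the 87 receptor genes passed its filter on low counts, and the other 46 had 52 UMIs or fewer in all libraries together. Of the 41, 5 passed only through their level in brain (Gabra2, Grm8, Chrnb4, Gria1 and Grin2c). Their direction was thus largely fixed by the filter, and they are kept in the counts, shares and medians below. Brain against liver gave 15 calls among the 41 (36.6%), where 21.8% of all tested genes were called. Higher in brain were 9 of them (Chrna3, Chrnb4, Gabra2, Gabra5, Gria1, Gria2, Grik3, Grm7 and Grm8), against 13.2% of all genes. Chrnb4, Gabra2, Gria1 and Grm8 are among the 5 that passed only through brain. Lower in brain were 6 (Chrnb2, Drd4, Gria3, Grin2a, Grm2 and Grm4), against 8.56% of all genes. Brain against subcutaneous gave 7 calls (17.1%), near the 15.1% of all tested genes. These were Gabra2, Gabra5, Gria1, Grik3 and Grm8, higher in brain (8.94% of all genes were), and Chrnb2 and Grin2a, lower in brain (6.13% of all genes). Gabra2, Gria1 and Grm8 again passed the filter only through brain. All 7 were also called against liver, but both comparisons use the same 2 brain libraries. The median log2 fold change of the 41 genes was 0.42 against liver and 0.09 against subcutaneous tumours, where that of all genes was 0.00 in both.

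**Figure D2:**
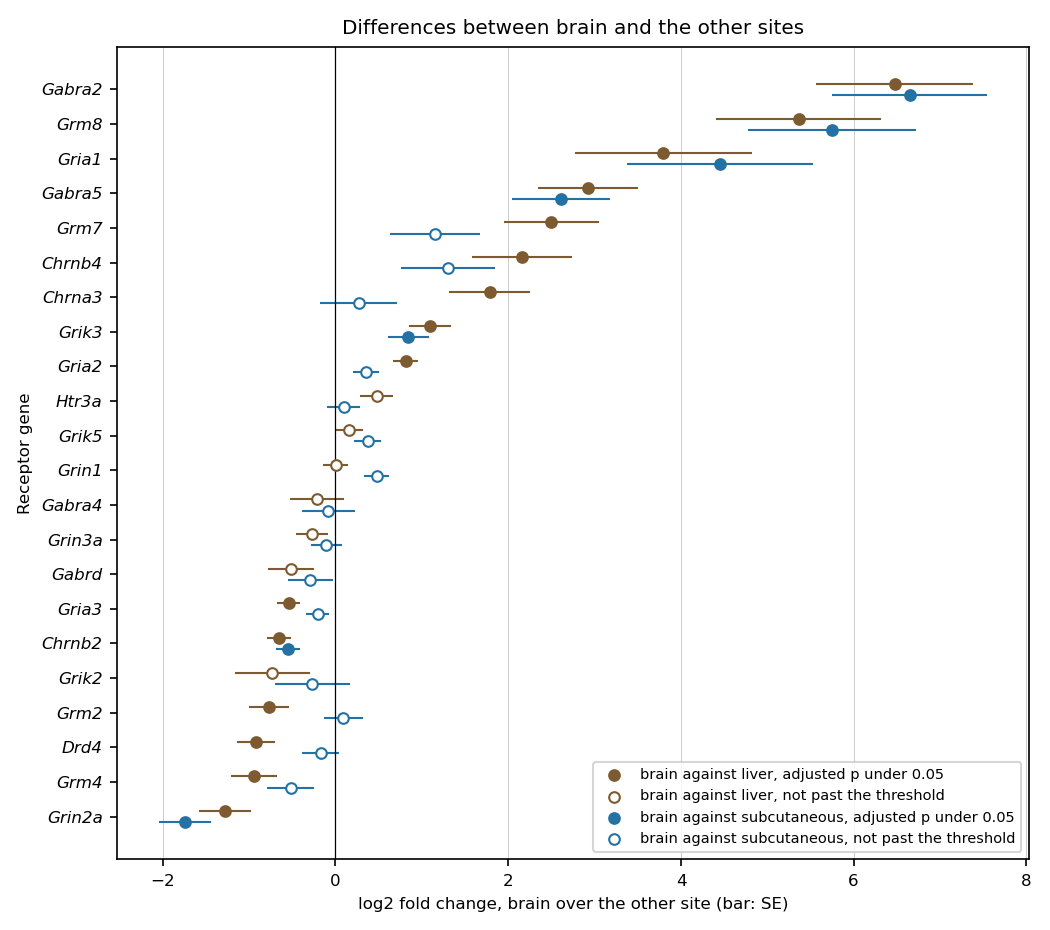
Log2 fold changes of 22 named genes, brain over liver (brown) and brain over subcutaneous (blue), with bars of 1 SE and filled points where the adjusted p was under 0.05. The points run from Gabra2 at 6.47 and 6.65 down to Grin2a at -1.28 and -1.74.

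The calls depended on single libraries. Without brain replicate 1 or without brain replicate 2, brain against liver gave 5 calls each. It gave 9 when liver replicate 1 was left out and 7 when it was liver replicate 2. Brain against subcutaneous gave 1 call without brain replicate 1, 3 without brain replicate 2 and 3 without subcutaneous replicate 2 or 3. It gave 17 with subcutaneous replicate 1 left out. Where a brain library is left out, the other is assumed to vary like the remaining sites. The brain libraries also carried more transcripts of host cells inside the tumour gate. Summed over 5 oligodendrocyte markers the level was 216 and 150 CPM in brain tumour cells and 37.2 to 48.3 CPM elsewhere, and over 8 microglia or macrophage markers it was 376 and 57.0 CPM against 1.76 to 14.9 CPM. The 6 astrocyte markers summed to 85.5 and 66.7 CPM in brain and 17.1 to 40.9 CPM elsewhere, and the 4 markers of oligodendrocyte precursors to 12.4 and 10.7 CPM against 0.345 to 2.71 CPM. The 6 neuron markers summed to 47.2 and 37.2 CPM in brain and 24.6 to 42.4 CPM elsewhere, mostly from Rbfox3 and Gad1, which were present at every site. The neuron markers Camk2a (7.84 and 2.51 CPM against 0.585 to 0.931 CPM), Nrgn (5.67 and 2.38 CPM against 0.0771 to 0.36 CPM) and Slc17a7 (0.645 and 0.31 CPM against 0 to 0.12 CPM) were above all other libraries in both brain libraries. Of all these markers Mog and Olig2 were at 0 in every liver and subcutaneous library, and none was at 0 in both brain libraries. The receptor levels in the cells under the gate are therefore given beside the results they touch. Under the gate of the brain libraries the 6 neuron markers summed to only 9.59 and 13.0 CPM, less than in the tumour cells. The part of RNA from neurons was thus not tested by these levels. Leaving out cells with at least 3 UMIs of the 48 host markers kept 894 of 2418 and 2480 of 4060 brain tumour cells. In subcutaneous replicate 1, for comparison, 3366 of 4150 were kept. Because the list holds genes present at every site, such as Rbfox3 and Gad1, tumour cells without host RNA can be left out too.

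The sequences before a transcript start are shown for 5 genes that moved with site or between subpopulations of tumour cells. All 5 hold a motif marked below. Each is the 250 bases before the start of a RefSeq transcript (GRCm38.p6), written along the strand of the gene. These windows lie at chr5:71095850-71096099 (minus strand, Gabra2), chr4:125490446-125490695 (plus, Grik3), chr6:28126427-28126676 (minus, Grm8), chr3:80802836-80803085 (minus, Gria2) and chr9:106656110-106656359 (minus, Grm2). The Grm8 window lies inside the gene as GENCODE places it (chr6:27275119-28135178). It belongs to the last of 3 starts that the RefSeq table lists for Grm8, and the windows of the other two overlap exons, are not shown and hold no CAGGTG. Capitals mark the E-box CAGGTG in Gabra2, Grik3 and Grm8, the left part TTCAGCACC of the RE1 element in Grm2, and its right part GGACAGCGC, here as the reverse complement, in Gria2. RE1 is the element bound by the repressor REST, which keeps neuronal genes silent in other tissues, and E-boxes are bound by factors of the basic helix-loop-helix family such as Neurod1.
Gabra2: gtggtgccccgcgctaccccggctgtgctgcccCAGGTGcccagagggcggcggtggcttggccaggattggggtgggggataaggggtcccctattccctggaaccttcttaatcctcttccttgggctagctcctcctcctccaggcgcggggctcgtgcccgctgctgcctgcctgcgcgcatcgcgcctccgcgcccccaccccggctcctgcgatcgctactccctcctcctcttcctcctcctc
Grik3: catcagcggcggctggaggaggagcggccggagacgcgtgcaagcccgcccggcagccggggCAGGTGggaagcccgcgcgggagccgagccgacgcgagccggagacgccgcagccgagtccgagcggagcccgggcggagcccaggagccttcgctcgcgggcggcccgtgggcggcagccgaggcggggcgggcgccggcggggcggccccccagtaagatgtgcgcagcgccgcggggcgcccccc
Grm8: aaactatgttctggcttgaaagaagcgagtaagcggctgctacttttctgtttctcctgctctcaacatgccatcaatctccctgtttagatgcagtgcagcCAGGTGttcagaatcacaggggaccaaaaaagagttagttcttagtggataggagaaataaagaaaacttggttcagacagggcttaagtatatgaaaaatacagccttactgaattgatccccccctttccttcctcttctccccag
Gria2: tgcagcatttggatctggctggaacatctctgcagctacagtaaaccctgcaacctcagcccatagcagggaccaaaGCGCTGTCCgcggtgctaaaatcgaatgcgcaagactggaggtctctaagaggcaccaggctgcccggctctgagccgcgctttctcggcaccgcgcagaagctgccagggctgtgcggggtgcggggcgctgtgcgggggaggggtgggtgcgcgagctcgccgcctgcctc
Grm2: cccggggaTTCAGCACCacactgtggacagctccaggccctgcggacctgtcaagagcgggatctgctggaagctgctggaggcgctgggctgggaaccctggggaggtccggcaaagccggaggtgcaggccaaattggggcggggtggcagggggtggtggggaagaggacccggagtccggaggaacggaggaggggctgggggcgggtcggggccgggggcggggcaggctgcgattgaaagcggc
Searched on both strands in 76 such windows of 65 receptor genes, CAGGTG lay in 25.0% of them and in 17.2% of 32851 windows of all genes. CAGCTG lay in 11.8% against 13.0%, the homeobox core TAATTA in 5.26% against 4.84%, TTCAGCACC in 1.32% against 0.301% and GGACAGCGC in 2.63% against 0.304%. Only 1 and 2 receptor windows stood behind the last pair of shares. The windows of Gabra5, Chrnb2, Grm7 and Chrna3, genes also called by site, held none of these motifs and are not shown. A match describes letters and was not tested as a binding site.

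Among AMPA receptor subunits, which carry fast excitatory signals, Gria2 and Gria3 were the abundant ones. Gria2, whose subunit limits the calcium flow of the channel, lay at 23.3 and 32.7 CPM in the brain libraries, 15.7, 14.1 and 14.6 CPM in liver and 21.7, 22.8 and 21.4 CPM in subcutaneous tumours. Both brain libraries were above all others, and the liver libraries were below all subcutaneous ones. The log2 fold change was 0.81 (SE 0.145, adjusted p = 0.0062) against liver and 0.35 (adjusted p = 0.132) against subcutaneous tumours. Gria2 (chr3:80681450-80802835) was 1 of 3 genes whose brain against liver call held under each alternative that tested them, with adjusted p from 2.61e-05 to 0.0435. The others were Gabra2 and Grm8, which passed the filter only through brain. In brain, cells under the gate also had Gria2, at 4.48 and 18.5 CPM, and without cells carrying host marker UMIs the log2 fold change against liver was 0.96. Gria3 was at 11.4 and 9.38 CPM in brain, 13.7, 13.9 and 14.3 CPM in liver and 10.6, 12.1 and 13.2 CPM in subcutaneous tumours. Brain and liver did not overlap for Gria3, and the log2 fold change against liver was -0.54 (SE 0.138, adjusted p = 0.0232).

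Gria1, a subunit common in forebrain neurons, was near the limit of counting. It had 8 and 13 UMIs in the brain libraries (0.369 and 0.336 CPM), 2, 0 and 1 UMIs in liver and 2, 0 and 0 UMIs in subcutaneous tumours. The summed counts gave a ratio of 16.6 to liver (exact 95% interval 4.97 to 87.1, counting error only) and 27.1 to subcutaneous tumours (6.62 to 238). The test gave adjusted p = 0.0294 and 0.0263, but in the cells under the gate of the brain libraries Gria1 was at 0.64 CPM and 0.69 CPM, above the tumour cells, on 3 UMIs and 1 UMI. The part of these cells in the difference was not tested. Gria4 stayed untested with 12 UMIs in all libraries.

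Leaving out libraries ended 2 of these 3 AMPA calls against liver. Gria3 lost its call without brain replicate 1 (adjusted p = 0.0556), brain replicate 2 (0.179), liver replicate 1 (0.0539) or liver replicate 2 (0.0649), and Gria1 without brain replicate 1 (0.118) or any liver library (0.0607, 0.0905 and 0.0769). Against subcutaneous tumours Gria1 lost it without brain replicate 1 (0.121), subcutaneous replicate 2 (0.0809) or subcutaneous replicate 3 (0.0835), and DESeq2 gave 0.0782 and 0.0538 for its 2 comparisons.

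Kainate receptors modulate transmitter release and excitability, and here Grik5, a high-affinity subunit that needs a partner to form a channel, was the most abundant. It ranged from 16.1 CPM to 26.4 CPM over the 8 libraries, and neither brain comparison was called (adjusted p = 0.499 and 0.139). Grik3, one possible partner, was at 9.73 and 7.10 CPM in brain, 4.74, 2.74 and 3.37 CPM in liver and 4.70, 4.25 and 5.05 CPM in subcutaneous tumours. Both brain libraries exceeded all 6 others, with log2 fold changes over liver of 1.10 (SE 0.241, adjusted p = 0.0133) and over subcutaneous tumours of 0.84 (SE 0.240, adjusted p = 0.0450). Cells under the gate had 0 and 1.37 CPM of Grik3 in the brain libraries, below the tumour cells. Grik2, another partner, was lowest in subcutaneous replicate 1 at 2.01 CPM and brain replicate 2 at 3.15 CPM, with 5.12 to 6.78 CPM in the other 6 libraries, and was not called (adjusted p = 0.261 and 0.717). Without cells that had a UMI of the transcription factor En1, the Grik3 values fell to 0.68 (adjusted p = 0.121) and 0.51 (0.254). Grik3 also lost its call against liver without brain replicate 1 (0.0958), and against subcutaneous tumours without either brain library (0.254 and 0.0766), liver replicate 3 (0.0647), subcutaneous replicate 2 (0.121) or subcutaneous replicate 3 (0.0947). The subcutaneous call was also lost without cells carrying host marker UMIs (log2 fold change 0.82, adjusted p = 0.0558), with no gate (0.70, 0.0978), with counts thinned to the smallest library (0.77, 0.0964) and with only the 2 sites compared (0.85, 0.0537).

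NMDA receptors need Grin1, the obligatory subunit, together with a Grin2 subunit. Grin1 was at 19.7 and 18.4 CPM in brain, 16.2, 15 and 21.5 CPM in liver and 13.4, 13.3 and 14.3 CPM in subcutaneous tumours. The brain libraries lay above the subcutaneous ones without overlap, but the call was missed (log2 fold change 0.48, adjusted p = 0.0545), and liver overlapped brain. The Grin2 subunits were far lower. Grin2a was at 0.876 and 0.930 CPM in brain, 2.35, 1.69 and 2.05 CPM in liver and 2.13, 3.55 and 3.41 CPM in subcutaneous tumours. Brain was below every other library, with log2 fold changes over liver of -1.28 (SE 0.302, adjusted p = 0.0176) and over subcutaneous tumours of -1.74 (SE 0.304, adjusted p = 0.00877). Grin2d ran the other way in its values, at 1.57 and 1.81 CPM in brain, 0.405 to 0.729 CPM in liver and 0.322 to 1.25 CPM in subcutaneous tumours, but was not called (adjusted p = 0.0894 and 0.122). Grin2b stayed at or under 0.54 CPM everywhere. Grin3a, a subunit that lowers calcium entry, held 7.34 to 10.9 CPM with no call.

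The Grin2a call against liver was lost without brain replicate 1 (adjusted p = 0.102), brain replicate 2 (0.0956) or liver replicate 1 (0.0573), and without cells carrying host marker UMIs (0.0935). Against subcutaneous tumours it was lost without brain replicate 1 (0.0714) or brain replicate 2 (0.0615).

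The metabotropic glutamate receptors of the third group, Grm4, Grm7 and Grm8, dampen transmitter release and differed in direction. Grm8 was at 2.03 and 1.94 CPM in brain (44 and 75 UMIs) and at 0.0202, 0.0209 and 0.0863 CPM in liver. The subcutaneous libraries had 0.120, 0 and 0 CPM, so brain was far above every other library. Its counts gave ratios of 47.1 to liver (exact 95% interval 21 to 131, counting error only) and 61.3 to subcutaneous tumours (25.6 to 192), on 119 UMIs against 6 and 5. edgeR gave adjusted p = 0.00603 and 0.00797, for a gene that passed the filter only through brain, so that its direction was largely fixed. Grm8 was nearly absent under the gate in brain, at 0.21 CPM (1 UMI) and 0 CPM. Leaving out cells with host marker UMIs left log2 fold changes of 5.42 (adjusted p = 0.00155) and 6.49 (adjusted p = 0.00169). The only alternative without a call was the fit without brain replicate 1 against subcutaneous tumours (adjusted p = 0.0558).

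Grm7 was at 1.89 CPM in both brain libraries, 0.405, 0.167 and 0.345 CPM in liver and 1.51, 0.50 and 0.559 CPM in subcutaneous tumours. Brain was above all others, with subcutaneous replicate 1 closest to it. The log2 fold change was 2.50 (SE 0.545, adjusted p = 0.0130) against liver and 1.15 (adjusted p = 0.165) against subcutaneous tumours. The liver call was lost without brain replicate 1 (0.0599), brain replicate 2 (0.0631) or liver replicate 2 (0.0508). Grm4 was lower in brain, at 1.52 and 1.73 CPM against 2.85, 3.22 and 2.63 CPM in liver, while the subcutaneous values of 1.85, 2.10 and 3.08 CPM overlapped liver. Against liver its log2 fold change was -0.94 (SE 0.269, adjusted p = 0.0355). Without brain replicate 1 (0.181), brain replicate 2 (0.122), liver replicate 1 (0.0827), liver replicate 2 (0.106) or subcutaneous replicate 2 (0.0533) Grm4 was not called.

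Grm2, an autoreceptor of the second group, was the most abundant metabotropic member and was highest in liver. It lay at 12.7 and 15.8 CPM in brain, 23.1, 28.4 and 16 CPM in liver and 14.3, 12.3 and 13.7 CPM in subcutaneous tumours. Liver replicate 3 nearly met brain replicate 2. The log2 fold change of brain over liver was -0.77 (SE 0.233, adjusted p = 0.0433), which was lost without brain replicate 1 (0.248), brain replicate 2 (0.104), liver replicate 1 (0.107), liver replicate 2 (0.112), subcutaneous replicate 2 (0.0562) or subcutaneous replicate 3 (0.0629). It was also lost without cells carrying host marker UMIs (-0.67, adjusted p = 0.0678) and without cells with an Isl1 UMI (-0.72, 0.0510). Grm3 of the same group held 1.32 to 3.02 CPM with no call, and in brain replicate 2 it was higher under the gate (7.54 CPM) than in tumour cells (2.27 CPM).

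GABA-A receptors are the main inhibitory chloride channels of the brain, usually built from alpha, beta and gamma subunits, or with delta in place of gamma outside the synapse. The delta subunit Gabrd was the most abundant subunit here. It was at 65.9 and 45.0 CPM in brain, 63.4, 70.8 and 85.4 CPM in liver and 44.1, 80.4 and 78.3 CPM in subcutaneous tumours. Subcutaneous replicate 1 and brain replicate 2 were the lowest libraries, and brain overlapped both other sites. Gabrd was not called for brain against liver (adjusted p = 0.189) or against subcutaneous tumours (0.484). Without subcutaneous replicate 1 it was called in both comparisons, and with only the 2 sites compared it was called against liver. The alpha subunit Gabra4, which pairs with delta in the thalamus and hippocampus, held 8.81 to 12.8 CPM in 7 libraries and 5.40 CPM in subcutaneous replicate 1, with no call. Of the gamma subunits, Gabrg3 had 1 UMI and Gabrg1 had 8 over all libraries.

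Gabra5, an alpha subunit of extrasynaptic receptors in the hippocampus, was at 2.58 and 2.61 CPM in brain and 0.304, 0.230 and 0.410 CPM in liver. In subcutaneous tumours it was at 0.863, 0.226 and 0.212 CPM, so the brain libraries stood well above all others and subcutaneous replicate 1 came next. The log2 fold change was 2.93 over liver (SE 0.580, adjusted p = 0.00909) and 2.61 over subcutaneous tumours (SE 0.569, adjusted p = 0.0194). Cells under the gate of the brain libraries had 0.426 and 0 CPM of it. Whether counting used strand is not given in the sources used here, so transcripts from the opposite strand cannot be told apart from those of Gabra5. Without cells carrying host marker UMIs its log2 fold changes were 3.63 and 3.24. Gabra5 lost its call against liver without brain replicate 2 (adjusted p = 0.0503), and against subcutaneous tumours without either brain library (0.0895 and 0.0867), subcutaneous replicate 2 (0.0573) or subcutaneous replicate 3 (0.0598).

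Gabra2, an alpha subunit of synaptic receptors, had 26 UMIs in each brain library (1.20 and 0.672 CPM) and 2 UMIs in the other 6 libraries together, 1 in liver and 1 in subcutaneous tumours. The ratio of summed counts was 124 to liver (exact 95% interval 21.2 to 4974) and 134 to subcutaneous tumours (23.0 to 5394), with intervals for counting error only. edgeR gave adjusted p = 0.00242 and 0.00351, and both calls held under each alternative that tested the gene. Gabra2 passed the filter only through brain, so its direction was largely fixed and this adds little. Under the gate Gabra2 was at 0.426 CPM (2 UMIs) in brain replicate 1 and 2.06 CPM (3 UMIs) in brain replicate 2, below and above the tumour cells of the same libraries. Without cells carrying host marker UMIs too few counts were left for the filter, so the part of host RNA was not tested. Gabra2 lies beside Gabrg1, Gabra4 and Gabrb1 on chromosome 5. Of these neighbours, Gabra4 was not called, Gabrg1 was too low to test, and Gabrb1 was at 2.35 and 1.96 CPM in brain and 0.774 to 1.25 CPM in liver (adjusted p = 0.0595).

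Nicotinic receptors are acetylcholine-gated channels, and Chrna3, Chrnb4 and Chrna5 form a gene cluster on chromosome 9 that supplies the receptor of autonomic ganglia. Chrna3 was at 1.61 and 1.52 CPM in brain, 0.304, 0.272 and 0.691 CPM in liver and 0.791, 1.76 and 1.33 CPM in subcutaneous tumours. Brain and subcutaneous values overlapped, and liver was below all others. The log2 fold change was 1.78 (SE 0.465, adjusted p = 0.0258) against liver and 0.27 (adjusted p = 0.731) against subcutaneous tumours. Chrnb4 was at 0.415 and 0.413 CPM in brain, 0.142, 0.0627 and 0.0432 CPM in liver and 0.144, 0.161 and 0.193 CPM in subcutaneous tumours. It was called against liver (2.16, SE 0.580, adjusted p = 0.0286) and not against subcutaneous tumours (1.30, adjusted p = 0.137). Chrna5, on the other strand of the cluster, was at 0.65 and 1.86 CPM in brain and 1.46 to 2.82 CPM elsewhere, with no call (adjusted p = 0.357 and 0.16).

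Chrnb2, the usual beta subunit of brain nicotinic receptors, was the most abundant nicotinic gene. It was at 7.88 and 6.79 CPM in brain, 11.6, 10.5 and 9.69 CPM in liver and 10.2, 10.6 and 11.3 CPM in subcutaneous tumours. Brain was below all 6 other libraries, by a log2 fold change of -0.65 to liver (SE 0.143, adjusted p = 0.0130) and -0.55 to subcutaneous tumours (SE 0.142, adjusted p = 0.0329). Its common partner Chrna4 had 50 UMIs in all libraries together and Chrna7 had 9, and neither could be tested.

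Of the nicotinic calls against liver, Chrnb2 was lost without brain replicate 2 (adjusted p = 0.0956). Chrna3 was lost without brain replicate 1 (0.107), brain replicate 2 (0.106), liver replicate 1 (0.0869) or liver replicate 2 (0.0947), and Chrnb4 without brain replicate 1 (0.104), brain replicate 2 (0.123), liver replicate 2 (0.0959) or liver replicate 3 (0.0698). With no gate Chrnb4 (0.0505) and Chrna3 (0.0523) also missed the threshold, and with DESeq2 Chrnb4 did (adjusted p = 0.0663). The Chrnb4 call was lost with the replicate number as a block as well. Chrnb4 rests on 63 UMIs over all libraries. Against subcutaneous tumours Chrnb2 was lost without brain replicate 1 (0.0890), brain replicate 2 (0.176), liver replicate 2 (0.0566), subcutaneous replicate 2 (0.0991) or subcutaneous replicate 3 (0.115).

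Serotonin receptors were represented by Htr3a (chr9:48899213-48911099) almost alone. It was at 140 and 112 CPM in brain, 87.5, 68.5 and 95.4 CPM in liver and 96.7, 144 and 113 CPM in subcutaneous tumours. Liver lay below the other sites, but no call was made for brain against liver (log2 fold change 0.48, adjusted p = 0.10) or against subcutaneous tumours (0.09, adjusted p = 0.778). With only the 2 sites compared, or without subcutaneous replicate 1, Htr3a was called against liver. Htr3b, the subunit that joins Htr3a in mixed channels, had 14 UMIs in all libraries. The next serotonin receptors, Htr6 and Htr1b, held 0.583 to 1.22 CPM and 0.108 to 0.413 CPM with no call.

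Dopamine receptors were represented by Drd4, an inhibitory receptor of the second dopamine receptor class. It was at 8.90 and 7.60 CPM in brain, 11.8, 14.4 and 16.9 CPM in liver and 6.76, 10.1 and 10.8 CPM in subcutaneous tumours. Liver was above all other libraries, and the log2 fold change of brain over liver was -0.92 (SE 0.222, adjusted p = 0.0191). Drd4 lost this call without brain replicate 1 (0.0905), brain replicate 2 (0.153), liver replicate 2 (0.0588) or liver replicate 3 (0.0518), and against subcutaneous tumours it had none (adjusted p = 0.635). Drd2 was at 0.415 and 0.388 CPM in brain and 0.0607 to 0.312 CPM elsewhere (adjusted p = 0.0648 against liver). The muscarinic receptors together reached at most 0.461 CPM in any library and the glycine receptor subunits 0.599 CPM.

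Liver against subcutaneous tumours gave 0 edgeR calls among the 41 receptor genes, where 2.83% of all tested genes were called, 0.933% higher and 1.9% lower in liver. An unadjusted p under 0.05 was reached by 9 of the 41, and DESeq2 called 5 (Chrna3, Drd4, Gria2, Grin1 and Grm2). The lowest edgeR values among these were adjusted p = 0.0595 for Grm2 (log2 fold change of liver over subcutaneous 0.86) and 0.0770 for Drd4 (0.75). Chrna3 was lower in liver by value (-1.52, adjusted p = 0.0970). Without subcutaneous replicate 1 the count was 3, and without liver replicate 3 it was 1.

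Receptor genes also differed between tumour cells of 1 library, described here with no test because cells are not replicates. Cells with a UMI of En1, a homeobox factor of the midbrain and hindbrain, made up 20.8% and 23.5% of brain tumour cells, 0.805% to 1.36% in liver, 7.11% in subcutaneous replicate 1 and 1.26% and 1.13% in the other subcutaneous libraries. Gabra5 and Grik3 were higher in such cells than in the others in 8 of 8 libraries, by median log2 ratios of 2.05 and 1.38. Gabrd, Drd4 and Htr3a were lower in 8 of 8, by median log2 ratios of -1.87, -1.82 and -1.25. In brain replicate 1, Gabra5 was at 7.04 CPM in cells with En1 and 1.21 CPM in cells without, and in brain replicate 2 at 5.35 and 1.71 CPM. Of the Grm8 UMIs, 29 of 44 in brain replicate 1 and 47 of 75 in brain replicate 2 lay in cells with En1, at 5.67 CPM and 4.93 CPM, against 0.903 CPM and 0.960 CPM in cells without. Outside brain the cells with En1 had few UMIs to compare: 4 of Grm8 in subcutaneous replicate 1 and 0 in the other 5 libraries.

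With cells that had an En1 UMI left out, an alternative chosen after seeing the data, Grm8 differed between brain and liver (log2 fold change 4.28, adjusted p = 0.00782). Gabra5 (2.51, adjusted p = 0.0196) and Gria2 (0.64, adjusted p = 0.0226) were called too. Cells that express En1 but had no En1 UMI stay in this fit, so the part of such cells in the differences was not tested. Calls against liver were lost for Grik3, Gria3 (log2 fold change -0.36, adjusted p = 0.0990), Drd4 (-0.65, 0.0699) and Grm4 (-0.68, 0.117). Chrnb4 (1.93, adjusted p = 0.0729) and Grm2 (-0.82, 0.0526) also missed the threshold, at fold changes near those with all tumour cells (2.16 and -0.77). Against subcutaneous tumours they were lost for Grik3 and Chrnb2 (-0.50, adjusted p = 0.0543, from -0.55). In this fit Gabrb1 and Htr3a joined the calls against liver.

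Cells with a UMI of Isl1, a homeobox factor of motor and sensory neurons, made up 6.27% to 12.6% of tumour cells. In them 8 of the 23 named genes were higher in 8 of 8 libraries and 0 were lower in all. Among these the median log2 ratios were 0.79 for Gabra4, 0.79 for Grik2, 0.73 for Htr3a and 0.53 for Grin3a, and below 0.4 for Gria2, Chrnb2 and Grik5. Htr3a reached 221 and 194 CPM in Isl1 cells of the brain libraries against 128 and 99.8 CPM in the others, while liver replicate 2 showed almost no gap at 72.0 against 68.2 CPM. Chrna3 was higher in 7 of 8, at 6.77 against 0.852 CPM in brain replicate 1 and 4.77 against 1.23 CPM in subcutaneous replicate 2. Without Isl1 cells the Chrna3 call against liver was lost (log2 fold change 1.38, adjusted p = 0.0621). Cells with an Isl1 UMI were deeper than the others, with medians from 10717 to 13030.5 UMIs against 7688 to 10378.

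Cells with a UMI of Tfap2a, an AP-2 factor of epithelia and neural crest, had less of Gabra4, Grik2, Grik3 and Gabrd in 8 of 8 libraries, with median log2 ratios of -1.21, -0.85, -0.75 and -0.52. In subcutaneous replicate 1, where these cells were most frequent, Gabra4 was at 1.25 CPM in them and 8.45 CPM in the rest. Cells with at least 4 UMIs of G2/M genes had more Gabra4 (0.62), Gria3 (0.36) and Grin3a (0.14) in all 8 libraries, and less Grm4 (-0.67), Grin2a (-0.45), Drd4 (-0.42) and Grin1 (-0.12).

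**Figure D3:**
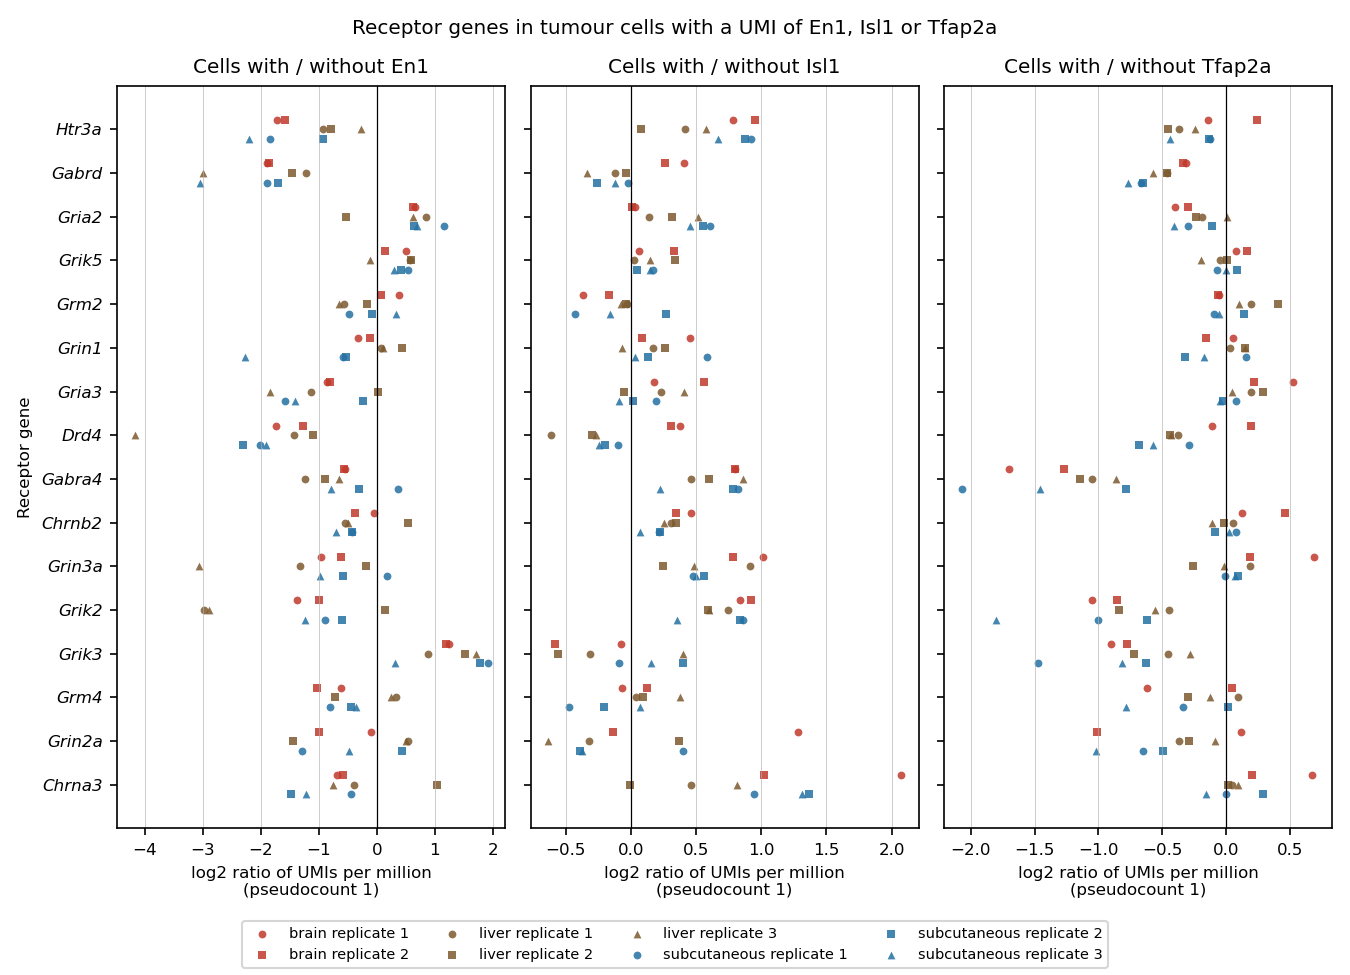
Log2 ratio of CPM (pseudocount 1) in tumour cells with over cells without a UMI of En1, Isl1 or Tfap2a, for 16 named genes with a mean of at least 1 CPM, 1 point per library. Gabrd, Drd4 and Htr3a lie left of 0 in all 8 libraries for En1, Gabra4 and Grik2 lie right of 0 for Isl1 and left of 0 for Tfap2a.

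Per cell the receptor signal was sparse. With each cell thinned to 3000 UMIs, which left out 48 to 180 cells per library, 58.4% to 66.4% of tumour cells had a UMI of any receptor gene, and the median cell had 1 receptor gene. The most in 1 cell was 5 or 6. Htr3a was found in 18.1% to 29.8% of thinned tumour cells (43.4% to 57.1% unthinned), and in 2.24% and 4.79% of thinned cells under the gate in brain (3.03% and 4.56% unthinned). Median depths were 7972 and 8409 UMIs in brain tumour cells and 4081 and 3585 UMIs under the gate. The variance of Htr3a over thinned cells was 1.16 to 1.67 times its mean, and before thinning the highest count in 1 cell was 10 to 23 UMIs by library. Grm8 was found in 0.619% and 0.548% of thinned brain tumour cells and in at most 0.0251% in the other 6 libraries.

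Some receptor genes were higher in the cells under the gate of the brain libraries instead. Htr7, a stimulatory serotonin receptor, was at 14.9 and 26.1 CPM under the gate of the brain libraries (70 and 38 UMIs) and at 0.277 and 0.0775 CPM in tumour cells. It was found in 5.43% and 7.98% of the cells under the gate and in 0.248% and 0.0739% of tumour cells. With no gate, Htr7 and Gabrg1 were called higher in brain against both other sites, and Grin2c against subcutaneous tumours, while in tumour cells Htr7 and Gabrg1 were too low to test and Grin2c was not called. Gabrg1 was at 1.49 and 2.06 CPM (7 and 3 UMIs) and Grin2c at 0.640 and 4.11 CPM (3 and 6 UMIs) under the gate, so both rest on few molecules.

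**Figure D4:**
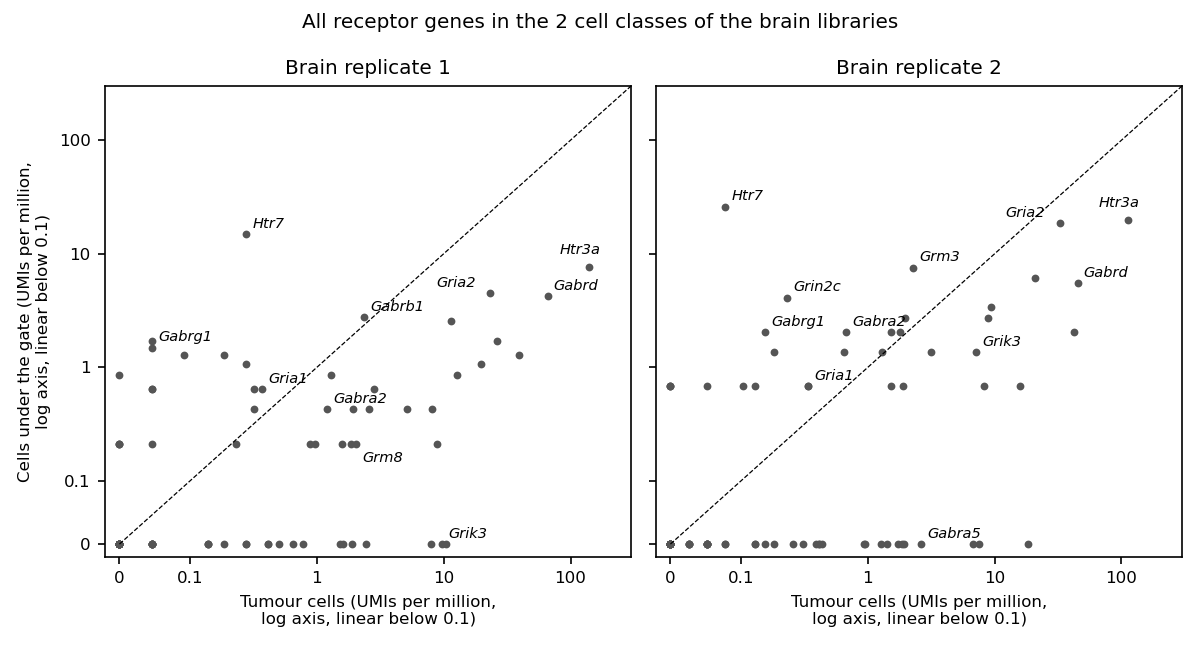
Level of each of the 87 receptor genes in tumour cells (x axis) and in kept cells under the tumour gate (y axis) of the 2 brain libraries, in CPM on log axes that are linear below 0.1, with a dashed line at equal levels. Htr7 lies far above the line in both libraries, and Htr3a, Gabrd and Grik3 lie below it.

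Of 99 genes for the synthesis and transport of transmitters and for receptor assembly, 83 were tested. Brain against liver called 27 higher and 4 lower (37.3%), and brain against subcutaneous 16 higher and 3 lower (22.9%), beside the 21.8% and 15.1% of all genes. Among those called higher than liver, Slc6a11, Slc1a3, Slc17a7, Chat, Cacng8 and Rapsn reached the filter's level of 0.212 CPM only in brain. Their direction was thus largely fixed by the filter, and they are kept in these shares. Slc6a11, Slc1a3 and Rapsn, called in both comparisons, were higher under the gate than in brain tumour cells, and the other such genes were lower. The acetylcholine transporter of vesicles, Slc18a3, was at 6.13 and 5.17 CPM in brain, 0.142, 0.146 and 0.0648 CPM in liver and 0.839, 0.210 and 0.212 CPM in subcutaneous tumours. Brain was higher by log2 fold changes of 5.43 (SE 0.627, adjusted p = 0.00122) and 3.78 (SE 0.558, adjusted p = 0.00483), with 0.213 and 0 CPM under the gate. Gch1, which makes the cofactor of monoamine synthesis, was at 112 and 114 CPM in brain and 44.6 to 63.7 CPM elsewhere, with log2 fold changes of 1.02 and 1.11 (adjusted p = 0.00242 and 0.00282). Tph1, the first enzyme of serotonin synthesis outside the brain, rose with log2 fold changes of 1.09 and 1.10 (adjusted p = 0.00403 and 0.00643), from 5.56 to 7.74 CPM elsewhere to 12.7 and 15.9 CPM. Tph2 went the other way, with log2 fold changes of -0.75 against liver (adjusted p = 0.0124) and -0.43 against subcutaneous tumours (adjusted p = 0.102). The 4 genes called lower in brain than liver were Tph2, Gabbr2, Dlg3 and Shisa9.

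Among scaffolds of glutamate receptors, Shank1 was at 29.6 and 25.9 CPM in brain against 7.34 to 16.8 CPM elsewhere (log2 fold changes 1.49 and 1.39, adjusted p = 0.0115 and 0.0218). Nptx2, a secreted protein that gathers AMPA receptors, was at 20.2 and 16.8 CPM in brain and 1.60 to 2.44 CPM in liver (3.10, adjusted p = 0.00683), but subcutaneous replicate 1 had 14.3 CPM and that comparison was not called (1.30, adjusted p = 0.121). Lynx1 and Lypd1, which bind nicotinic receptors, were called higher in brain than liver (1.54, adjusted p = 0.00271, and 1.21, adjusted p = 0.00323), and Lynx1 also against subcutaneous tumours (1.17, adjusted p = 0.0118). Slc1a2, the glutamate transporter of astrocytes, was at 14.6 and 7.03 CPM in brain tumour cells and 0.907 to 1.87 CPM elsewhere (3.38 and 2.76, adjusted p = 0.000522 and 0.00129). It was also at 14.1 and 52.1 CPM in the cells under the gate, and the part of these cells in its difference was not tested. In liver against subcutaneous tumours 1 of the 83 genes was called, Lypd1 (-0.78, adjusted p = 0.0449), and 19 had an unadjusted p under 0.05.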

How the data were processed

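The authors deposited, per sample, 1 matrix of whole-number UMI counts with gene identifiers and cell barcodes. Per the file headers it is in the format of software version 3.0.0, and the submitters' processing notes name Cell Ranger, STAR and the build mm10. The annotation is not given in the sources used here. All 87 receptor genes were placed by identifier on GENCODE M21 (GRCm38).

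Counts of gated cells were summed per library, and library totals of 21689091 to 62047017 UMIs limit the precision of genes under 1 CPM. Doublets were not called. An alternative leaves out the 4% of cells with the most UMIs. R 4.3.3 with edgeR 4.0.16 was used for TMM factors, filterByExpr, robust quasi-likelihood models and their F test, with 1 mean per site, and the steps were tested on simulated data. The fit had 5 residual degrees of freedom and a biological coefficient of variation of 17.9%. SEs were taken as the fold change on the log2 scale over the square root of F. The filter removed genes with 0.0133% of the UMIs in all. Ratios of summed counts have exact binomial intervals computed with scipy 1.17.1, which leave out the spread between libraries. Symbols listed more than once (29) were left out of the lists.

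Named were all receptor genes called in at least 1 comparison or at a mean of 5 CPM or more in 1 site, and of the transmitter lists the 8 with the largest called fold change at 5 CPM or more. A few results, 1 named receptor gene among them, are not reported here. Genes outside this rule were chosen after their values were seen. The receptor genes and all lists were chosen with earlier results of these data known. Tried as alternatives were DESeq2 1.42.0, RLE size factors, other filters and gates, non-cycling cells, thinned counts, equal numbers of cells, host markers (fewer than 3 UMIs of 48 genes), a replicate block, fits restricted to the compared sites, and leaving out each library. Another 2 alternatives, chosen after seeing the data, left out cells with an En1 UMI or an Isl1 UMI.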

Additional observations from a re-analysis of the deposited data

How the results depend on the processing

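For 22 calls of single receptor genes, 528 alternative fits gave 437 with the same call, 91 without it and 0 with the opposite direction. Losses not given above include Gria1 against liver without the cells with the most UMIs (adjusted p = 0.0587) and, with only the 2 sites compared, Gabra5 (0.0720), Gria1 (0.0724) and Chrnb2 (0.0624) against subcutaneous tumours. Calls were gained too. Brain against liver gave 22 with only the 2 sites compared or without subcutaneous replicate 1. Gabrd, Htr3a, Grik2, Gabrb1, Drd2 and Grin2d were among those added in both fits. Counts of calls among receptor genes moved by over 1.5 times under these settings. With only the 2 sites compared, brain against subcutaneous gave 3. Liver against subcutaneous went from 0 to 1 without cells carrying host marker UMIs, without the cells with the most UMIs or with counts thinned to the smallest library, to 2 with non-cycling cells only and to 5 with DESeq2. Leaving out 1 library in turn gave 5 to 22 calls for brain against liver, 1 to 17 for brain against subcutaneous and 0 to 3 for liver against subcutaneous.

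Among transmitter genes, brain against liver gave 20 calls without En1 cells, against 31. Brain against subcutaneous gave 8 with only the 2 sites compared, against 19. Liver against subcutaneous, with 1 call, gave 2 at a minimum count of 50, at a gate of 0.4%, without the cells with the most UMIs and without En1 cells, 0 with no gate, without host marker cells and with equal cell numbers, and 4 with DESeq2. Leaving out 1 library gave 14 to 39, 6 to 39 and 0 to 6 calls. The cause of these changes was not tested.

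With the replicate number as a block, brain against liver gave 11 receptor calls, brain against subcutaneous 6 and liver against subcutaneous 0. The labels do not say whether equal numbers pair the samples. Libraries of the same number had correlations of -0.235 to 0.241 between their deviations from the site means, and not each library correlated best with its own number. Brain replicates 1 and 2 each did so with the subcutaneous library of their number (0.241 and 0.215). With 2 brain libraries, however, the deviations of brain mirror each other, so these correlations cannot decide on pairing.

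Depth limits the low genes most: with 2 brain libraries and under 30 UMIs per library for Gabra2 and Gria1, their fold changes rest on few molecules.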
